A study of Homo sapiens with 5 samples.

Results

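Splicing factor and RNA helicase genes were described here as a group: the genes whose symbols begin with SRSF, SF3, HNRNP, SNRP, PRPF, CPSF or CSTF, or with DDX, DHX, RBM or LSM followed by a digit. The name rule matched 60 genes of the deposited table of transcription start sites (TSSs), and 59 of them had values in all 3 TSS libraries, of 9767 genes measured in all. They comprised 13 RBM genes, 11 DDX genes, 9 LSM genes, 7 SRSF genes, 6 DHX genes, 5 HNRNP genes, 3 SNRP genes, 2 PRPF genes, 2 CPSF genes and 1 CSTF gene, and no SF3 gene. DDX3Y was not analysed here. The rule used names alone, and 1 of the 59, RBM26-AS1, is an antisense RNA gene that starts 93 bp from RBM26 on the other strand.

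RNA polymerase II was mapped by ChIP-seq against RPB1, its largest subunit, in RPE1 cells, an immortalised human retinal pigment epithelial line. All cells carried an inducible Cas9 and lacked p53 and the puromycin resistance gene, per the labels, and all were untreated. The groups were CFAP20-KO (1 library), which lacks the ciliary and nuclear protein CFAP20, CFAP20/CCNC-dKO (1 library), which lacks in addition cyclin C, a subunit of the Mediator kinase module, and WT (3 libraries). The series asked how transcription and replication are arranged in space and what CFAP20 contributes to both.

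The labels name a Bethyl antibody to RPB1 for both knockout libraries and an Active Motif antibody for WT, under a catalogue number that they also give for the spike-in antibody. Against WT, genotype and antibody therefore cannot be told apart, and the WT label may be wrong. The labels do not say whether each knockout was a single clone. CFAP20 and CCNC themselves were not analysed here, so neither knockout was checked at its target gene. With 1 TSS library of each genotype, the genotypes were compared without replicates and no p-value is given. The 3 libraries held 840866 equivalent fragments in CFAP20-KO, 1180544 in CFAP20/CCNC-dKO and 7008385 in WT over all TSS windows (an equivalent fragment is the coverage of 1 extended read). The reads had been extended to 300 bp in CFAP20-KO, 320 bp in CFAP20/CCNC-dKO and 140 bp in WT, which spreads a peak further in the knockouts. Of 8 markers fixed for the RPE1 line only ANXA2 and TGFBI were measured, and ANXA2 had a promoter density of 8.03 in CFAP20-KO, 5.00 in CFAP20/CCNC-dKO and 7.49 in WT. TGFBI had 1.83 in CFAP20-KO, 0.692 in CFAP20/CCNC-dKO and 1.18 in WT. The 9 measured markers of neurons, blood, liver and muscle reached at most 0.574 in the knockouts, and in WT at most 0.465 apart from SNAP25 at 1.05.

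Pre-mRNA splicing is carried out by the spliceosome, which is built anew on each intron from small nuclear ribonucleoproteins and many accessory proteins. SR proteins and hnRNPs bind the transcript and favour or hinder the use of splice sites, while DEAD-box (DDX) and DEAH-box (DHX) helicases drive the rearrangements of RNA and protein. Several of these helicases also unwind R-loops, in which nascent RNA pairs with the template strand, and in many cell types genes of this kind are among the more strongly transcribed. The deposited values are spike-in normalised coverage, and promoter density below is their mean from -200 to 500 bp of the TSS.

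The splicing factor and helicase genes were mostly well occupied. Their median promoter density was 1.57 in CFAP20-KO, 1.19 in CFAP20/CCNC-dKO and 1.62 in WT, against 0.451, 0.428 and 0.408 over all 9767 genes in the same order of libraries. Of the 59, 54 lay above the median density of all genes, and the 5 below it were CPSF4L, DDX43, DDX53, RBM11 and RBM44. The authors' deposited WT BrU-seq value, a measure of nascent transcription with no error, had a median of 4.77 over the 57 members that have one, against 0.591 over all genes.

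The highest promoters belonged to SRSF3, SRSF6 and SRSF7, SR proteins that bind exonic sequences and help the spliceosome recognise exons. SRSF3 had a promoter density of 9.67 in CFAP20-KO, 4.44 in CFAP20/CCNC-dKO and 7.63 in WT, where it ranked 9 of 9767 genes. SRSF6 had 7.17 in CFAP20-KO, 4.21 in CFAP20/CCNC-dKO and 7.15 in WT, with a WT rank of 11. SRSF7 had 6.84 in CFAP20-KO, 4.78 in CFAP20/CCNC-dKO and 6.49 in WT, with a WT rank of 17. In all 3 genes the CFAP20/CCNC-dKO library was the lowest of the libraries, and between CFAP20-KO and WT the density ratio was 1.27 for SRSF3, 1.00 for SRSF6 and 1.05 for SRSF7.

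Their promoters are shown because they carried the most RPB1 of the whole group. The sequences are RefSeq promoters of build GRCh38.p14, from 250 bases before to 50 bases after the annotated start, and lie at chr6:36594112-36594411 (plus strand) for SRSF3, chr20:43457646-43457945 (plus strand) for SRSF6 and chr2:38751445-38751744 (minus strand) for SRSF7. Each is printed on the gene's own strand, 5′ to 3′, and capitals mark matches on either strand to 1 of 4 motifs. These were CCAAT, the motif bound by NF-Y, the box GGGCGG of SP-family factors, the motif TATAAA bound by TBP, and the longer motif CCGGAAGT of ETS-family factors.
SRSF3: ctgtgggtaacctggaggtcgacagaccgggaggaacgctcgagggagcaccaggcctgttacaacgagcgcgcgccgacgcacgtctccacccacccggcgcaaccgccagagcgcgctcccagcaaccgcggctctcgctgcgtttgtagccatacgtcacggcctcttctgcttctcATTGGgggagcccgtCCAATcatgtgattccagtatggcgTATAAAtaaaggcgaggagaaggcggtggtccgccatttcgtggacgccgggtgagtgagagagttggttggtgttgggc
SRSF6: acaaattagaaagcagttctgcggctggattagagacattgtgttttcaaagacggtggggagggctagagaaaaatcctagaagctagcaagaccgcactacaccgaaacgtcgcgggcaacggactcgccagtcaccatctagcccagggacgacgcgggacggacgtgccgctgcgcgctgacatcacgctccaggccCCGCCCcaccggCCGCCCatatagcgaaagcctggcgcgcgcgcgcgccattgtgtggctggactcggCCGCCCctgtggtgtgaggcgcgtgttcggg
SRSF7: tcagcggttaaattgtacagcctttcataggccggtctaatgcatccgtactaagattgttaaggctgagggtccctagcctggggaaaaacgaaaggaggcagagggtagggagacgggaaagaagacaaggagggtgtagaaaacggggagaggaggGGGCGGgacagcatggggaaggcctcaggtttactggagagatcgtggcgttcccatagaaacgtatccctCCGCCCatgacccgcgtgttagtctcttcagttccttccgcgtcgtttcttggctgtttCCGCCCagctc

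SRSF3 held CCAAT and TATAAA in this window, while SRSF6 and SRSF7 held GGGCGG, each more than once. SRSF7 starts 39 bp from GEMIN6 on the opposite strand, and its density can include reads of that gene.

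A gap in WT separated these 3 SR genes from the next members. DDX56, a nucleolar helicase of ribosome assembly, had 3.21 in CFAP20-KO, 1.75 in CFAP20/CCNC-dKO and 3.37 in WT. SRSF8 had 3.61 in CFAP20-KO, 2.52 in CFAP20/CCNC-dKO and 3.34 in WT. SRSF10, an SR protein that represses splicing after heat shock, had 3.97 in CFAP20-KO, 2.31 in CFAP20/CCNC-dKO and 2.94 in WT. In WT the promoters of DDX56 and SRSF8 rested on 379 and 376 equivalent fragments and did not differ beyond counting error. RBM34, DDX21, LSM8 and LSM14A followed, with WT densities of 2.89, 2.80, 2.62 and 2.57.

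By role, SR proteins had the highest median promoter density, with 3.97 in CFAP20-KO, 2.52 in CFAP20/CCNC-dKO and 3.34 in WT over 7 genes. The 5 helicases known for unwinding R-loops or G-quadruplexes had 1.92 in CFAP20-KO, 1.66 in CFAP20/CCNC-dKO and 2.26 in WT. The 3 Sm and U snRNP proteins, components of the snRNP cores and of U1, had 2.09 in CFAP20-KO, 1.43 in CFAP20/CCNC-dKO and 1.91 in WT. The 5 hnRNPs, which coat nascent transcripts, had 2.30 in CFAP20-KO, 1.49 in CFAP20/CCNC-dKO and 1.90 in WT. HNRNPH1, 1 of these 5, has its strongest stretch outside the promoter window, as given below. LSM proteins, most of which form rings that bind the U6 and U7 snRNAs or decay intermediates, had medians of 1.34 in CFAP20-KO, 0.935 in CFAP20/CCNC-dKO and 1.75 in WT over 9 genes. The 3 spliceosomal helicases DDX46, DHX8 and DHX16 had 1.33 in CFAP20-KO, 0.744 in CFAP20/CCNC-dKO and 1.16 in WT. The roles overlapped widely: the SR proteins alone spanned 0.423 to 7.63 in WT.

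**Figure D1:**
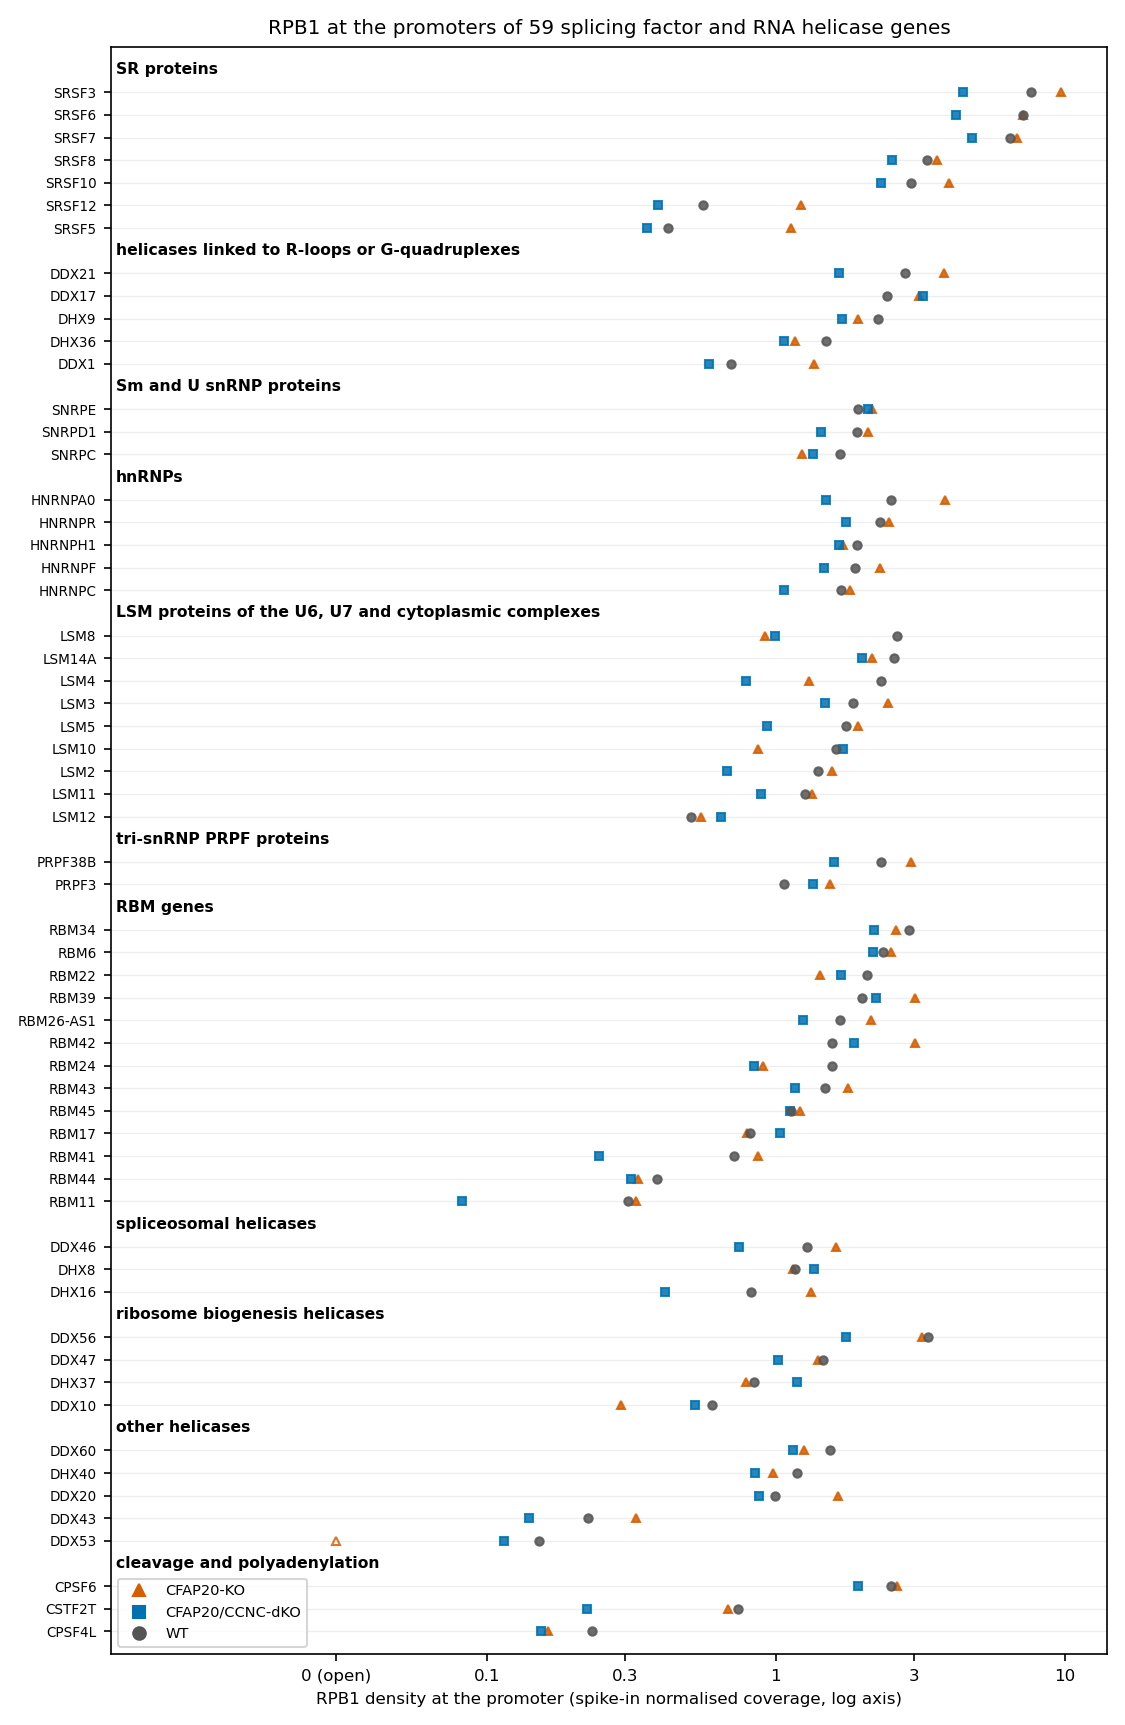
RPB1 promoter density (spike-in normalised coverage, log axis) of the 59 genes, grouped by role, with 1 triangle for CFAP20-KO, 1 square for CFAP20/CCNC-dKO and 1 circle for WT; an open symbol marks 0. SRSF3, SRSF6 and SRSF7 stand at the top in every library, and in CFAP20/CCNC-dKO they reach 4.44, 4.21 and 4.78.

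The lowest members in WT were DDX53 at 0.151, DDX43 at 0.224, CPSF4L at 0.231, RBM11 at 0.309 and RBM44 at 0.388. DDX43 and DDX53 are cancer-testis helicases and RBM44 is a germ-cell protein. RBM24, a splicing regulator of heart and skeletal muscle, was the exception among the members listed as tissue-restricted, with 0.900 in CFAP20-KO, 0.841 in CFAP20/CCNC-dKO and 1.56 in WT. The nearest RefSeq start of RBM24 lies 718 bp downstream of its listed TSS, outside the promoter window. DDX53 was at 0 in CFAP20-KO, where the counting interval allows a ratio to WT of up to 2.11.

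Listed and occupied starts did not always coincide. HNRNPH1, an hnRNP that binds G-rich RNA, had its strongest stretch 1060 bp downstream of the listed TSS, and 700 bp around that stretch held a density of 6.12 in CFAP20-KO, 4.70 in CFAP20/CCNC-dKO and 6.29 in WT, against 1.70, 1.66 and 1.90 in the promoter window of the same libraries. LSM12 and DDX1 had their strongest stretch 1270 and 740 bp downstream. SRSF5 was listed 40242 bp upstream of its RefSeq start, so its value describes another start than the one RefSeq gives. Of the 53 members with a RefSeq promoter, 46 lay within 250 bp of the listed TSS, and all 59 lay within 500 bp of some GENCODE 44 transcript start of the same gene.

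**Figure D2:**
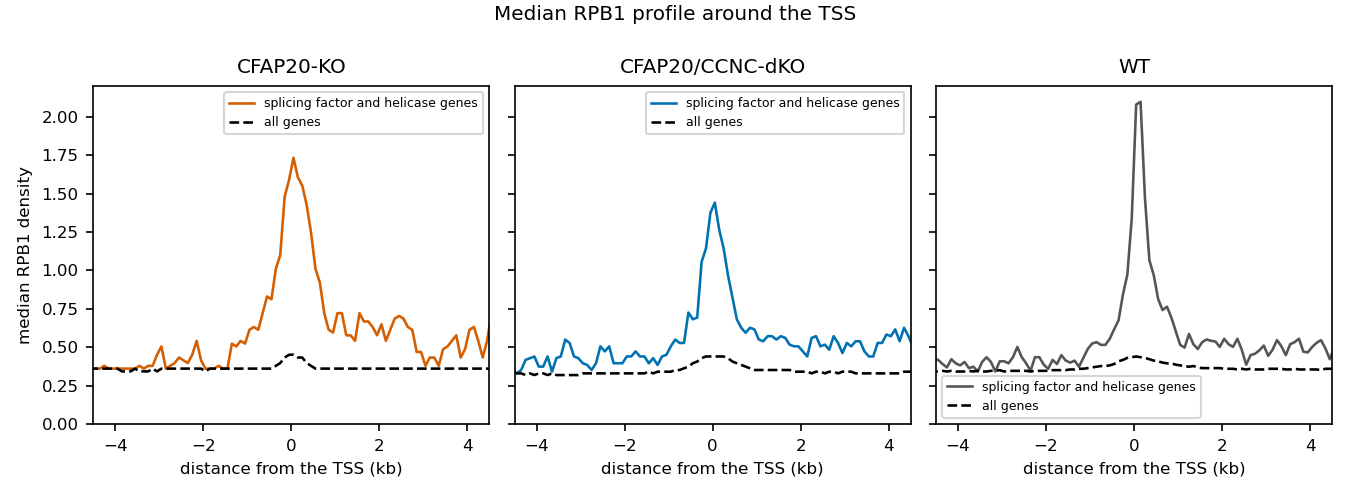
Median RPB1 density in 100-bp steps (vertical axis) against distance from the TSS in kb (horizontal axis), for the splicing factor and helicase genes (solid) and all genes (dashed), with CFAP20-KO left, CFAP20/CCNC-dKO in the middle and WT right. The group's median promoter density is 1.57, 1.19 and 1.62 in these panels, and the peak is narrowest in WT, where the inferred read length was 140 bp.

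The first comparison asked how RPB1 at these genes differs without CFAP20. Promoter density was higher in CFAP20-KO than in WT at 36 of 59 members, against 47.8% of all genes and 56.0% of the 1976 genes between the members' density quartiles (0.971 and 2.20 in the mean of the libraries). That range covers only the middle of the members' densities and leaves out the highest and lowest members, among them SRSF3, SRSF6 and SRSF7. Relative to the median ratio of genes above the median density (1.10), 23 of the 59 were higher, against 40.2% of all genes and 45.1% of genes between the quartiles, so the direction turned. By this measure 4 members passed 1.5-fold upwards and 7 downwards. Among all genes 13.4% were higher and 30.5% lower by at least 1.5-fold, and among genes between the members' density quartiles 9.11% and 15.8%, so the members' 6.78% and 11.9% lay near or below the background. The median centred log2 ratio of the 59 was -0.04, against -0.16 over all genes and -0.05 over genes between the quartiles.

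Among the lower promoters in CFAP20-KO, 3 of the 4 whose 95% counting interval excluded the median ratio encode LSM proteins. These 4 of 59 compare with 7.66% of all genes and 10.4% of genes between the quartiles, so their number lay below the background. LSM8, which closes the LSM ring on U6 snRNA, had 0.916 in CFAP20-KO and 2.62 in WT, a ratio of 0.350 (interval 0.178 to 0.623). The flanks of the 41 neighbouring TSSs around LSM8 were also lower there, at 0.539 of WT, so the whole stretch of chromosome 7 differed between these libraries. LSM4, a member of the same ring, had 1.3 in CFAP20-KO and 2.32 in WT, a ratio of 0.563 (interval 0.322 to 0.920), and its own flanks, which include its body, were 1.99-fold higher in CFAP20-KO. LSM10, part of the U7 snRNP that processes histone transcripts, had 0.864 in CFAP20-KO and 1.62 in WT, a ratio of 0.535 (interval 0.264 to 0.975). RBM24 had a ratio of 0.576 (interval 0.289 to 1.04), in a window that does not hold its RefSeq start. The other 6 LSM genes were not called, with centred log2 ratios between -0.39 for LSM14A and 0.26 for LSM3.

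Higher promoters with such an interval were RBM42, SRSF12 and SRSF5, 3 of 59 members, against 4.82% of all genes and 7.49% of genes between the quartiles. RBM42, an RNA-binding protein, had 3.02 in CFAP20-KO and 1.57 in WT, a ratio of 1.93 (interval 1.33 to 2.74), while the flanks of its neighbours on chromosome 19 were 1.39-fold higher. SRSF12, a relative of SRSF10, had 1.23 in CFAP20-KO and 0.558 in WT, a ratio of 2.20 (interval 1.18 to 3.86) that rested on 15.8 equivalent fragments in CFAP20-KO. SRSF5 had 1.13 in CFAP20-KO and 0.423 in WT, a ratio of 2.68 (interval 1.38 to 4.89), at its distant listed start. All 7 SR genes had a higher promoter density in CFAP20-KO than in WT, with SRSF6 the closest, against 47.8% of all genes and 56.0% of genes between the quartiles. Relative to the median ratio only 4 of the 7 were higher, against 40.2% and 45.1%. The median centred log2 ratio of the 7 was 0.21. DDX1 had 1.35 in CFAP20-KO and 0.698 in WT, but in the window around its strongest stretch the ratio was 0.699.

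Gene body density (2000 to 5000 bp, genes of at least 5000 bp) had a median centred log2 ratio of 0.19 over the 55 long members in CFAP20-KO against WT, compared with -0.07 over all 8440 long genes and 0.06 over those between the density quartiles. Here 5 members were at least 1.5-fold higher and 1 lower, against 6.24% and 16.7% of all long genes and 7.95% and 9.35% of those between the quartiles. LSM2 had 1.00 in CFAP20-KO and 0.416 in WT, a ratio of 2.41 (interval 1.76 to 3.26). RBM17, a protein of early spliceosome assembly, had 0.602 in CFAP20-KO and 0.297 in WT, a ratio of 2.03 (interval 1.35 to 2.97), inside a stretch of chromosome 10 whose neighbouring flanks were 1.48-fold higher. RBM6, LSM4 and SRSF6 had ratios of 1.84, 1.67 and 1.66. DDX46, the helicase that remodels U2 snRNP at the branch site, was the 1 lower member, with 0.283 in CFAP20-KO and 0.509 in WT, a ratio of 0.556 (interval 0.311 to 0.926). Before centring, the median log2 difference in the promoter to body ratio between CFAP20-KO and WT was -0.23 over the long members, -0.05 over all long genes and -0.02 over those between the quartiles. It was below 0 at 32 of 55 members, against 52.6% of all long genes and 52.0% of long genes between the density quartiles.

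The second comparison set the double knockout against WT. Of the 59 members, 49 had less RPB1 at the promoter in CFAP20/CCNC-dKO than in WT, against 62.7% of all genes and 80.4% of genes between the members' density quartiles. The 83.1% of all members thus lay close to the share of genes from the middle of their density range. Relative to the median ratio 42 of the 59 were lower, against 48.4% of all genes and 63.2% of those between the quartiles. By the 1.5-fold measure, around the median ratio of 0.845, 2 members passed 1.5-fold upwards and 10 downwards. The background was 20.6% higher and 19.6% lower over all genes, and 6.78% and 21.2% over genes between the members' density quartiles. The median centred log2 ratio was -0.16 over the 59, 0.03 over all genes and -0.17 over genes between the quartiles.

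Promoters lower in CFAP20/CCNC-dKO with an interval that excluded the median ratio were CSTF2T, LSM4, RBM41, LSM8 and DDX56, 5 of 59 members, against 7.40% of all genes and 17% (335 of 1976) of genes between the quartiles. LSM4 had 0.788 in CFAP20/CCNC-dKO and 2.32 in WT, a ratio of 0.340 (interval 0.190 to 0.566). It was the lowest LSM gene in this comparison, while its own flanks, body included, were 1.5-fold higher. DDX56 had 1.75 in CFAP20/CCNC-dKO and 3.37 in WT, a ratio of 0.518 (interval 0.355 to 0.735). LSM8 had 0.992 in CFAP20/CCNC-dKO and 2.62 in WT, a ratio of 0.379 (interval 0.227 to 0.598), again with neighbouring flanks at 0.538 of WT. RBM41, a protein of the minor spliceosome, had 0.244 in CFAP20/CCNC-dKO and 0.717 in WT, a ratio of 0.340 (interval 0.105 to 0.837) from 4.84 equivalent fragments in the knockout. CSTF2T, an intronless relative of the cleavage stimulation factor subunit CSTF2, had 0.222 in CFAP20/CCNC-dKO and 0.742 in WT, a ratio of 0.299 (interval 0.0861 to 0.763), but around its strongest stretch, 1300 bp downstream, the ratio was 0.989.

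The 2 higher promoters, both with such an interval, were helicases, against 8.04% of all genes and 5.77% of genes between the quartiles. DDX17, a splicing coactivator and R-loop helicase, had 3.24 in CFAP20/CCNC-dKO and 2.43 in WT, a ratio of 1.33 (interval 1.00 to 1.75), and in its gene body 1.4 in CFAP20/CCNC-dKO and 0.891 in WT, a ratio of 1.58 (interval 1.28 to 1.94). In the window around its strongest stretch, 520 bp downstream of the TSS, the ratio of DDX17 was 0.910. DHX37, a helicase of small-subunit ribosome assembly, had 1.19 in CFAP20/CCNC-dKO and 0.843 in WT, a ratio of 1.41 (interval 0.855 to 2.23). All 7 SR genes and all 5 hnRNP genes were lower in CFAP20/CCNC-dKO than in WT before centring, against 62.7% of all genes and 80.4% of those between the quartiles. Relative to the median ratio 6 of the 7 and 4 of the 5 were lower, against 48.4% and 63.2%. The median log2 ratios of the SR and hnRNP genes before centring were -0.44 and -0.38, and none of these 12 was called. Over all genes this median was -0.22, and over those between the quartiles -0.41. SRSF3, with 4.44 in CFAP20/CCNC-dKO and 7.63 in WT, had a centred log2 ratio of -0.53.

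The promoters of DDX21, DDX56, HNRNPA0 and LSM4 are shown as examples, chosen after their values were seen, of genes whose interval excluded the median ratio (DDX56 and LSM4 above, DDX21 and HNRNPA0 below) and whose listed TSS lay within 250 bp of the RefSeq start. Other genes also meet both. They lie at chr10:68955920-68956219 (plus strand), chr7:44573859-44574158 (minus strand), chr5:137754314-137754613 (minus strand) and chr19:18323027-18323326 (minus strand) of GRCh38.p14, with strand and capitals as above.
DDX21: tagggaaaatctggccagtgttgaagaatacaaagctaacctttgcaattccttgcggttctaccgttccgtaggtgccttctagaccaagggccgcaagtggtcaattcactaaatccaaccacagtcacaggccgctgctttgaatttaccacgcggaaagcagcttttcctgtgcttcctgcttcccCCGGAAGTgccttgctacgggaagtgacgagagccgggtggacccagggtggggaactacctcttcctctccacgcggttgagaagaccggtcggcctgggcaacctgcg
DDX56: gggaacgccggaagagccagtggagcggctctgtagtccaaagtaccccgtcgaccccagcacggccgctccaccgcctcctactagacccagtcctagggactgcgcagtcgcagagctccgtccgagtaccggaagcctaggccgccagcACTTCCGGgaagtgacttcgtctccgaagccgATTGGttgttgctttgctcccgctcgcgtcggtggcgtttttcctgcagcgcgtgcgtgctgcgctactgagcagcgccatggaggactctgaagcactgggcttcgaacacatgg
HNRNPA0: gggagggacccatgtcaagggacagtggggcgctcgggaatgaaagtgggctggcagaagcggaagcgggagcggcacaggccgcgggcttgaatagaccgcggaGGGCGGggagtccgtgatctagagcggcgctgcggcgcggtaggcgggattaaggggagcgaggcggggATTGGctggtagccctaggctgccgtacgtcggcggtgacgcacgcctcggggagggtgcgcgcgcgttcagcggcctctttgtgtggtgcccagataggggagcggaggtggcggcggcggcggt
LSM4: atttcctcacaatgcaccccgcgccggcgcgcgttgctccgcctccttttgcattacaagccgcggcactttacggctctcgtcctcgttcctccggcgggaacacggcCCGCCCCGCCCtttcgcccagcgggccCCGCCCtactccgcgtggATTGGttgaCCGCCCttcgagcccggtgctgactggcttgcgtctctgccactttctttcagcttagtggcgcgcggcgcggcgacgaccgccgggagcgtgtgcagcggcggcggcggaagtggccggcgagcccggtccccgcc

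DDX21 and DDX56 held the ETS-family motif CCGGAAGT. CCAAT was present in DDX56, HNRNPA0 and LSM4, and GGGCGG in HNRNPA0 and LSM4.

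In gene bodies, CFAP20/CCNC-dKO against WT gave 5 long members at least 1.5-fold higher and 2 lower, against 4.98% and 11.6% of all long genes and 5.43% and 8.70% of those between the quartiles. The median centred log2 ratio was 0.12 over the 55, -0.03 over all long genes and 0.03 over those between the quartiles. SRSF6 had 1.46 in CFAP20/CCNC-dKO and 0.864 in WT, a ratio of 1.69 (interval 1.37 to 2.07). RBM6 had a ratio of 1.71 and DDX60, an antiviral helicase, of 1.65. RBM17 had a ratio of 2.30 with neighbouring flanks 1.41-fold higher. LSM8, in its lower stretch, had a ratio of 0.455, and DDX43 of 0.621. SRSF6 thus had more RPB1 in its body and, with 4.21 in CFAP20/CCNC-dKO and 7.15 in WT, less at its promoter.

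The ratio of promoter to body density was lower in CFAP20/CCNC-dKO than in WT at 48 of 55 long members, against 62.5% of all long genes and 80.6% of long genes between the members' density quartiles. The median log2 ratio between the libraries, before centring, was -0.49 over the members, -0.23 over all long genes and -0.46 over genes between the quartiles. Before centring, all 5 hnRNPs, all 5 R-loop or G-quadruplex helicases, the 6 long SR genes and 12 of 13 RBM genes were lower, and relative to the median of genes above the median density 5, 4, 5 and 11 of them were, in the same order. By that measure 41 of the 55 were lower, against 47.3% of all long genes and 62.8% of those between the quartiles. The 4 ribosome biogenesis helicases split evenly, 2 lower and 2 higher, as did the 2 PRPF genes.

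Within WT, SRSF7, SRSF6 and SRSF3 had the highest promoter to body ratios, at 8.13, 7.93 and 7.24. These ratios include a pseudocount added to both densities, so they are slightly smaller than ratios of raw densities. In CFAP20-KO these ratios were 7.0 for SRSF7, 4.89 for SRSF6 and 6.16 for SRSF3, and in CFAP20/CCNC-dKO 3.95, 2.83 and 3.24. All 3 genes had their lowest ratio in the double knockout. RBM34 and DDX56 followed in WT with 6.24 and 5.52. The lowest ratios above the median density were those of LSM12 (0.876 in WT), SRSF5 (1.02), DDX1 (1.47), DDX10 (1.66) and HNRNPC (1.69), and the first 3 of these had a distant listed or occupied start.

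**Figure D3:**
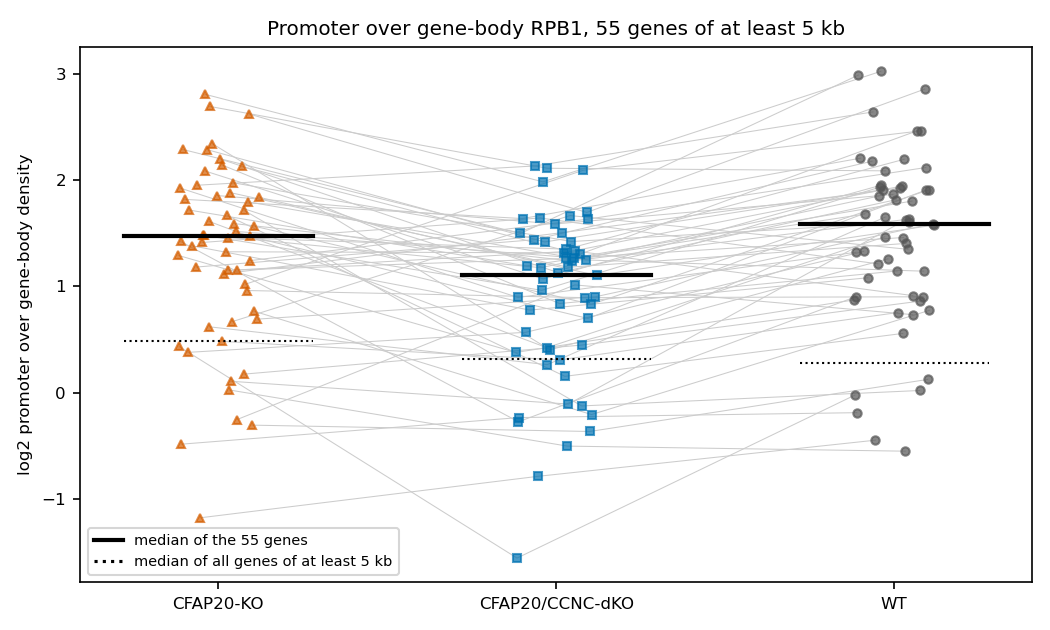
Log2 ratio of promoter to gene-body RPB1 density (vertical axis) of the 55 genes of at least 5 kb in CFAP20-KO, CFAP20/CCNC-dKO and WT, with a thin line joining each gene, a thick bar for the group's median and a dotted bar for the median of all long genes. The medians of the group are 1.47, 1.10 and 1.59, and those of all long genes 0.49, 0.32 and 0.28.

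The third comparison set both knockouts side by side, with the same named antibody. Less RPB1 at the promoter was found in CFAP20/CCNC-dKO than in CFAP20-KO at 48 of 59 members, against 57.9% of all genes and 79.6% of genes between the members' density quartiles. Relative to the median ratio of 0.757, 34 of the 59 were lower, against 41.2% of all genes and 56.4% of those between the quartiles, and 8 members passed 1.5-fold upwards and 14 downwards. The background was 34.0% higher and 17.3% lower over all genes, and 11.7% and 19.7% over genes between the quartiles. The median centred log2 ratio was -0.11 over the 59, 0.20 over all genes and -0.09 over genes between the quartiles. This comparison shares its libraries with the other two, so a high CFAP20-KO value raises its count of lower members.

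With an interval clear of the median ratio, SRSF3, DDX21, HNRNPA0 and DHX16 were lower and LSM10 was higher. The background was 3.83% lower and 6.53% higher over all genes, and 8.30% and 4.71% over genes between the quartiles. SRSF3 had 4.44 in CFAP20/CCNC-dKO, against 9.67 in CFAP20-KO, a ratio of 0.459 (interval 0.345 to 0.607). DDX21, a nucleolar helicase that unwinds R-loops, had 1.66 in CFAP20/CCNC-dKO, against 3.83 in CFAP20-KO, a ratio of 0.432 (interval 0.269 to 0.686). HNRNPA0 had 1.49 in CFAP20/CCNC-dKO, against 3.85 in CFAP20-KO, a ratio of 0.387 (interval 0.237 to 0.622). In each of these 3 genes WT lay between the knockouts, at 7.63, 2.80 and 2.50. DHX16, the helicase that activates the spliceosome for the first step, had 0.412 in CFAP20/CCNC-dKO, against 1.33 in CFAP20-KO, a ratio of 0.311 (interval 0.117 to 0.754). LSM10 had 1.71 in CFAP20/CCNC-dKO, against 0.864 in CFAP20-KO, a ratio of 1.98 (interval 0.983 to 4.31), and its WT value of 1.62 was close to the double knockout.

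**Figure D4:**
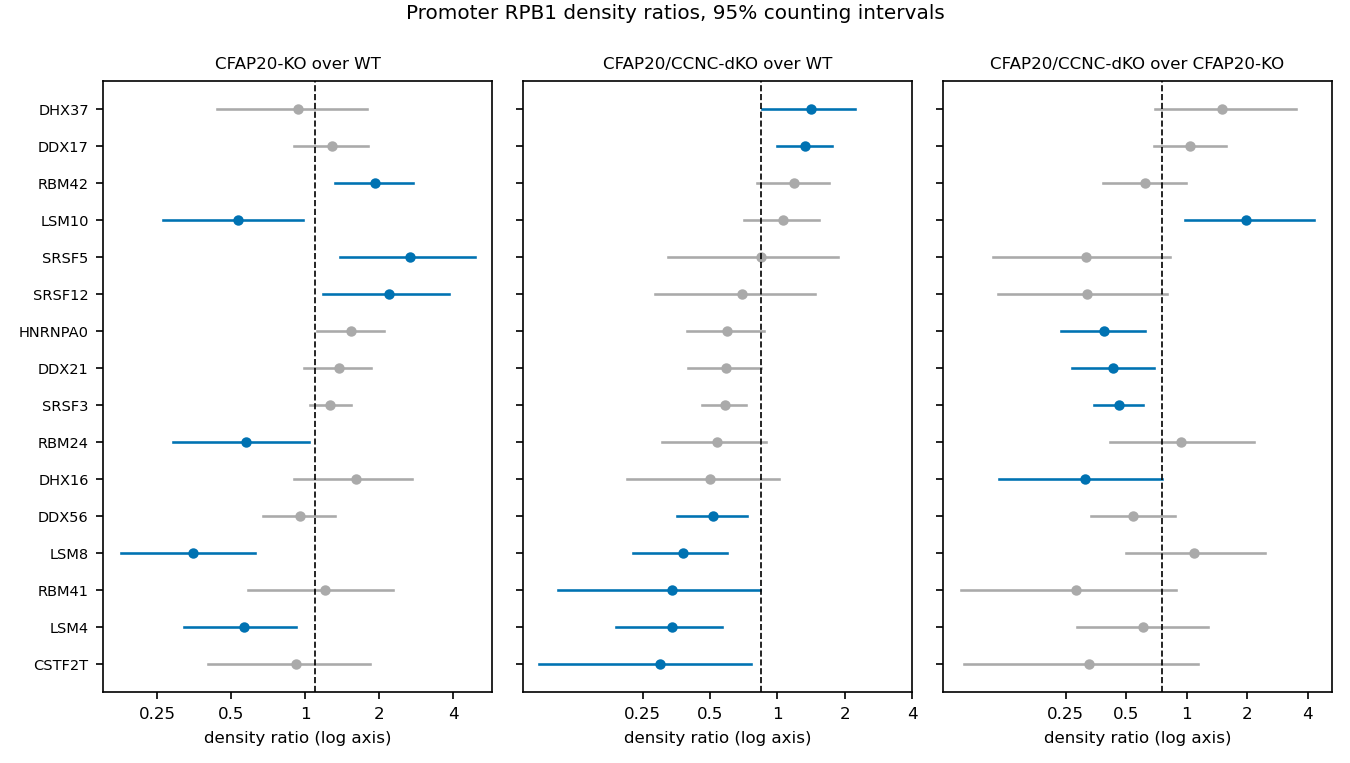
Promoter density ratios (log axis) of the 16 genes at least 1.5-fold from the median ratio with a 95% counting interval that excludes it in 1 or more comparisons. Points are ratios, lines are intervals, blue marks a gene called in that panel and the dashed line is the median ratio of genes above the median density (1.10, 0.845 and 0.757 from left to right); LSM4 and LSM8 are low in both knockouts against WT.

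In gene bodies 4 long members were at least 1.5-fold higher in CFAP20/CCNC-dKO than in CFAP20-KO and 5 lower, against 16.5% and 11.6% of all long genes and 10.5% and 11.8% of those between the quartiles. DDX17 had 1.4 in CFAP20/CCNC-dKO, against 0.817 in CFAP20-KO, a ratio of 1.72 (interval 1.21 to 2.48), so its body was highest in the double knockout of all 3 libraries. DDX46 and RBM45 had ratios of 1.95 and 2.03. LSM2 had a ratio of 0.555 (interval 0.369 to 0.833), DHX8, the helicase that releases spliced mRNA, of 0.561, and LSM8 of 0.465. The promoter to body ratio was lower in CFAP20/CCNC-dKO at 40 of 55 long members, against 57.0% of all long genes and 71.8% of long genes between the density quartiles. The median log2 ratio before centring was -0.52 over the members, -0.18 over all long genes and -0.42 over those between the quartiles.

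Replicates existed for WT alone, and only around replication origins. The origin windows of 100 kb on either side held the promoters of 10 members in 200-bp bins, among 1791 genes. The median log2 ratio of promoter to flank density over these 10 was 1.61, 1.43 and 1.87 in WT replicates 1, 2 and 3, against 0.60, 0.59 and 0.93 over all 1791 genes. The members' median was thus higher by 0.93 ± 0.08 on the log2 scale (SD, n = 3 libraries), in 3 of 3 libraries. The 1791 genes were not matched to the members for density. In the TSS libraries 91.5% of all 59 members, against 50.0% of all genes, lay above the median density. WT replicate 1 is the library of the TSS comparisons, and the other 2 are independent of them.

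SRSF8 had the highest promoter among the 10, 6.57 ± 3.2 times its flank (SD, n = 3), with 5.96, 3.71 and 10.0 in the 3 libraries. SRSF10 had the smallest SD of the 10 on the log2 scale (0.09), at 4.6 ± 0.32 times its flank, with 4.41, 4.41 and 4.96. RBM43, RBM17, RBM45 and DDX56 lay between 3.69 and 4.75, with SDs of 0.886 to 2.55. HNRNPC, which binds uridine-rich RNA and masks cryptic splice sites, and RBM22, which contacts the catalytic core of the spliceosome, lay at 2.52 ± 0.79 and 2.58 ± 0.79. DDX10 stood at 1.37 ± 0.27. DHX16 was the 1 member below its flank in every WT library, at 0.611 ± 0.101. Its flank densities were the highest of the 10, at 3.51, 1.65 and 2.24, beside promoter densities of 1.81, 0.992 and 1.61. Its promoter lay above its body in all 3 libraries, with log2 ratios of 0.785, 0.536 and 2.08.

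**Figure D5:**
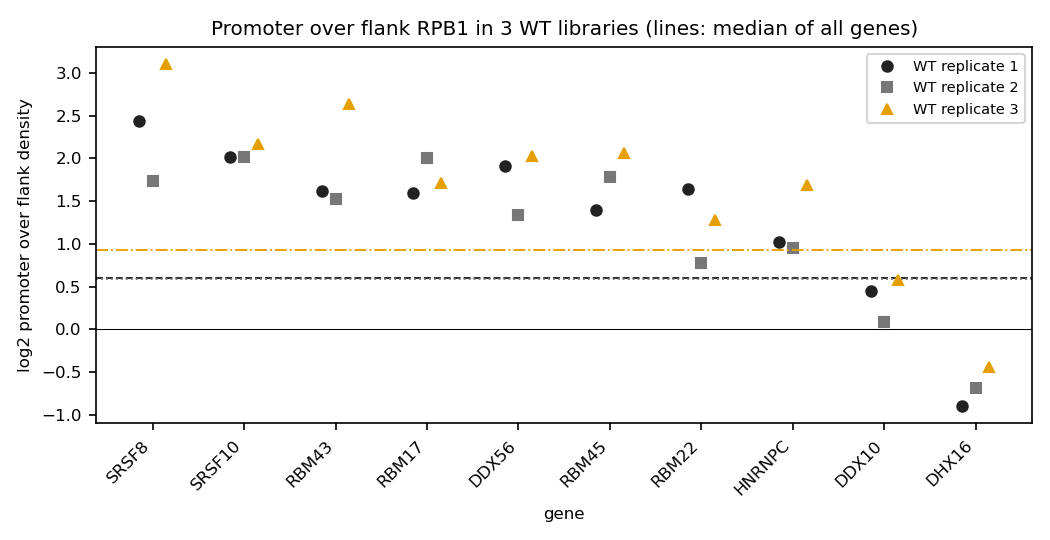
Log2 ratio of promoter to flank RPB1 density (vertical axis) of the 10 genes inside origin windows in WT replicates 1, 2 and 3, with horizontal lines at the medians of all 1791 genes (0.60, 0.59 and 0.93). SRSF8 is highest on average and DHX16 lies under 0 in all 3 libraries.

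In the 53 RefSeq promoters of the group, the letters CCGGAAGT, searched like all motifs here on both strands, occurred in 9, or 17%, against 4.78% of 4934 measured genes, 7.05% of 3005 measured genes above the median density and 4.44% of all 27305 promoters. The 9 genes were DDX21, DDX47, DDX56, DHX37, DHX8, LSM5, RBM34, SNRPE and SRSF5, which span helicases, LSM, RBM, Sm and SR proteins. CCAAT occurred in 45.3% of the group, 37.3% of measured genes and 37.7% of those above the median density. GGGCGG occurred in 47.2% of the group, 52.8% of measured genes and 65.0% of those above the median density. TATAAA occurred in HNRNPC, SNRPC and SRSF3, 5.66% of the group, against 11.6% of measured genes and 7.42% of those above the median density. AAGATGGCG occurred in 3 promoters, also 5.66%, against 2.03% and 2.93%. The NRF1 palindrome occurred in DDX10 alone, 1.89% of the group, against 1.22% and 1.66%. No motif searched contains another. The median CpG ratio, observed over expected, was 0.887 in the group, 0.698 in measured genes and 0.810 in those above the median density, at a median G+C content of 60.7%, 60.7% and 64.3%. PRPF3, SNRPD1, LSM14A, RBM43, RBM39 and CPSF4L had no entry in the sequence table.

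Other genes of the same processes were described by 2 lists. Of 34 other R-loop factors 9 were measured, with median promoter densities of 1.95 in CFAP20-KO, 1.28 in CFAP20/CCNC-dKO and 1.42 in WT. Among them, 0 were at least 1.5-fold higher and 3 lower in CFAP20-KO against WT, 1 higher and 1 lower in CFAP20/CCNC-dKO against WT, and 3 higher and 0 lower in CFAP20/CCNC-dKO against CFAP20-KO. The shares of all genes given above for these calls are 13.4% and 30.5%, 20.6% and 19.6%, and 34.0% and 17.3%, in the same order. Of 65 other spliceosome and 3′ end factors 16 were measured, with 1 higher and 4 lower in CFAP20-KO against WT, 2 and 2 in CFAP20/CCNC-dKO against WT, and 3 and 3 in CFAP20/CCNC-dKO against CFAP20-KO. TRA2B, an SR-like splicing activator and 1 of these 16, had 3.29 in CFAP20-KO, 2.40 in CFAP20/CCNC-dKO and 3.17 in WT.

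A protein-coding partner that starts within 1000 bp on the opposite strand was annotated for 2 members (3.39%) and 4.01% of all genes. Among the authors' listed replication origins, those with a measured member as nearest gene belonged to SRSF10, HNRNPC and RBM45, at distances of -26038, -4522 and 39064 bp to the TSS in the deposited table.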

How the data were processed

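Chromatin was fixed in 2 steps, with DSG and then formaldehyde, per the labels' protocols, and 28 µg of chromatin was precipitated with 40 ng of Drosophila chromatin as a spike-in (22 µg and 32.6 ng for CFAP20/CCNC-dKO). The deposited signal is coverage in 10-bp bins within 5 kb of each TSS, spike-in normalised by the authors per the file names, and in 200-bp bins around origins in WT, with a normalisation not given in the sources used here. BWA 0.7.17, STAR 2.7.7a, HOMER 4.8.2, SAMtools 1.11, Trim Galore 0.6.5 and the build hg38 are named in the submitters' processing notes, without their roles. The deposited BrU-seq value of WT, a score with no stated unit, was used as given, and 2 deposited columns of another kind of sample were not used.

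From these files, Python 3.11.15 with SciPy 1.17.1 and pandas 2.3.3 took 1 TSS per gene (the one with the highest mean promoter density) and mean densities from -200 to 500 bp (promoter), 2000 to 5000 bp (body) and 2000 to 4500 bp on both sides (flank). The TSS values came in whole steps (to within 0.02 steps) of a size fixed per library, and dividing by this step and the inferred read length gave equivalent fragments. The counts and intervals depend on that length. A member promoter held a median of 20.2 in CFAP20-KO, 23.6 in CFAP20/CCNC-dKO and 182 in WT. For log2 ratios between libraries, and for promoter to body ratios in the TSS libraries, a pseudocount of 0.0426 was added (10% of the median density). It understates changes of low genes. The log2 ratios between libraries were centred on the median of genes above the median density. Ratios with 95% Clopper-Pearson intervals are of raw densities and cover counting error only. A call is a centred difference of at least 1.5-fold. With 1 library per genotype there was no test. Ratio, centring and intervals were run on simulated Poisson counts with large planted changes. These counts follow the model that the intervals assume. The simulation therefore says nothing about spread beyond counting error, the inferred read lengths or calls near 1.5-fold. Named genes were a fixed list by role, the 10 highest and 5 lowest WT promoters, called genes with an interval clear of the median ratio, and the 5 highest and 5 lowest promoter to body ratios. CSTF2T, LSM12 and other genes with a distant start were also named for that. Members, lists and tests were chosen with earlier results of these data known. The density-quartile genes were added after seeing the data.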

Additional observations from a re-analysis of the deposited data

How the results depend on the processing

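Of 123 values recomputed under alternatives, 95 moved by less than 0.08 (log2) or, for counts, by at most 1.5 times. This 0.08 is the SD over the 3 WT libraries of the promoter to flank difference of 10 members. It does not measure the spread of ratios between genotypes. Whether single genes kept their calls was not recorded. The median centred promoter log2 ratio in CFAP20-KO against WT changed sign, from -0.0368 to 0.0009 with a promoter window of -500 to 1000 bp. Without centring, the median promoter log2 ratio was 0.10 in CFAP20-KO against WT, -0.40 in CFAP20/CCNC-dKO against WT and -0.51 in CFAP20/CCNC-dKO against CFAP20-KO. Over all genes it was -0.03, -0.22 and -0.20, and over genes between the members' density quartiles 0.08, -0.41 and -0.49. The counts were then 8 higher, 0 higher and 16 lower, and 3 higher and 26 lower members. Shares of all genes past 1.5-fold were not computed under the alternatives. These counts and those below therefore show only how the members' numbers depend on the setting. With a promoter window of -500 to 1000 bp, 4 members were lower in CFAP20-KO against WT, 0 higher and 6 lower in CFAP20/CCNC-dKO against WT (median -0.0535), and 3 higher and 6 lower in CFAP20/CCNC-dKO against CFAP20-KO. The WT median density was then 1.2, and the WT replicate difference on bins of -600 to 1000 bp was 0.66. Relative to each gene's flank, the median was -0.26 with 14 lower members in CFAP20-KO against WT, and 1 member was higher in CFAP20/CCNC-dKO against WT. In the window around the strongest stretch, added after seeing the data, the median was -0.15 with 13 lower members in CFAP20-KO against WT, 4 members were higher in CFAP20/CCNC-dKO against WT and 9 lower in CFAP20/CCNC-dKO against CFAP20-KO. Among the 46 members within 250 bp of a RefSeq start, also added later, 2 were higher in CFAP20-KO against WT. In CFAP20/CCNC-dKO against CFAP20-KO the members' centred promoter to body median was -0.186. A pseudocount of 40% left 5 higher members there and a centred promoter to body median of -0.064, and genes of any length gave -0.034. For CFAP20-KO against WT the centred promoter to body median was -0.287, and a body window of 1000 to 5000 bp gave -0.165. Leaving out 1 WT replicate gave 0.89 to 0.97. The cause of these shifts was not tested. With about 20 equivalent fragments per promoter in the knockouts, single-gene ratios are imprecise. No paired analysis was possible because the genotypes share only replicate number 1.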
